A study of Mus musculus with 10 samples.

Results

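The genes described here make cholesterol and fatty acids. They comprise the enzymes of the mevalonate and sterol steps, the SREBP transcription factors that switch these enzymes on with their sensors, a sterol carrier, and the enzymes that build, desaturate and lengthen fatty acids. A list of 33 genes was chosen by name, and a gene probe belonged to it when the probe's gene name or accession was that of a listed gene. All 33 genes were on the array, with 65 of its 41174 gene probes, and all 65 were among the 38629 probes tested. The name or accession in the file gave 64 of these probes, and the older symbol Mod1 gave a second probe of Me1. Sc4mol is the name in the file of the gene now called Msmo1.

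Cells make cholesterol from acetyl units through mevalonate, isoprenoid intermediates, squalene and lanosterol. When sterols in the endoplasmic reticulum run low, the escort protein Scap carries SREBP to the Golgi, where it is cut and released to activate the genes of the pathway, while the Insig proteins hold Scap back when sterols are plentiful. Fatty acid synthesis draws on the same acetyl units through Acly, Acaca and Fasn and is driven mainly by the Srebf1 product. In bone, isoprenoids of the mevalonate steps anchor small GTPases of osteoclasts, and the enzyme encoded by Fdps is the target of nitrogen-containing bisphosphonate drugs.

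Total RNA of whole femur was taken from 10 ICR mice, all male and 6 months old, and each animal had 1 Agilent one-colour array. The 5 control mice walked freely, and the 5 unloaded mice hung by the tail, head down at an angle, for 24 h, so that the hind legs bore no weight. Body weight was 28.6 ± 1.78 g in control and 27.3 ± 1.72 g in unloaded mice (SD, n = 5 each). The 75th percentile of intensity ran from 636.5 to 903.3 over the arrays, and 89.8% to 95.5% of spots were well above background. Whole femur holds bone cells, marrow and attached tissue, so fewer cells of a type and less RNA per cell cannot be told apart. Signals below are log2 intensities with the array's own 75th percentile subtracted, and a positive difference means higher in unloaded femur. A gene was read from its brightest tested probe, and levels of different genes were not compared, since probes differ in brightness for the same amount of RNA.

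The defining bone genes were measured, with Col1a1, the main bone collagen, between 6.80 and 7.01 on all 10 arrays. All 10 adipocyte and 8 skeletal muscle markers were also well above background on every array, with differences negative for 10 of the 10 and 7 of the 8. The 4 macrophage markers were all negative (median -0.12), while the 4 cartilage markers were all positive (median 0.31). The osteoblast and osteocyte markers were positive in 8 of 9 (median 0.08), and for 1 of them the groups did not overlap. Among all genes 60.1% were positive and 3.29% had groups that did not overlap. Signs depend on the scaling, since dividing by the median of the array shifted every difference by -0.10. That shift is larger in size than the osteoblast and osteocyte median. The mean of the adipocyte markers ran from 1.52 to 2.38 (median 1.91) in control and from 1.54 to 2.10 (median 1.73) in unloaded animals, and that of the muscle markers from 3.1 to 4.38 (median 3.84) and from 3.15 to 4.32 (median 3.47). No marker of these lists was called. The arrays lay on 3 slides. Slide 1 held controls 1 to 4, slide 2 held control 5 and unloaded animals 1 to 3, and slide 3 held unloaded animals 4 and 5, so that slide largely followed group.

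For none of the 33 genes was a change detected after 24 h of unloading. At an adjusted p below 0.05 (limma, Benjamini-Hochberg over all probes tested), 0 of 33 were called higher and 0 lower, against 0.00535% and 0% of all 18695 genes with a RefSeq symbol. At an unadjusted p below 0.05 there was 1 of 33 higher, Mvk, where all genes gave 9.84%, and 1 of 33 lower, Idi1, where all genes gave 5.9%. The smallest adjusted p of the 33 was 0.258. For no member's brightest probe did the animals of the 2 groups separate, while 3.29% of all genes separated. Over the 65 member probes 0 were called (0.00259% of all probes were), 3 had an unadjusted p below 0.05 (16.1% of all), and 42 were positive (62.6% of all).

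Differences ran from -0.29 for Scd2 to 0.28 for Mvk, with a median of 0.04 beside 0.05 over all genes. The sign was positive for 20 and negative for 13, and 60.1% of all genes were positive. That split depends on the scaling. Dividing by the median of the array in place of the 75th percentile shifted every difference by -0.10 and gave 13 positive and 20 negative. Under the 75th percentile, the median and quantile normalization alike, 13 members were positive and 11 negative, and the sign of the other 9 changed with the choice.

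The precision of these values differed between genes, with an SE from 0.08 for Elovl6 to 0.18 for Scd2. The 95% interval lay within a 1.5-fold change in either direction for 32 of the 33 genes, a bound that 85.5% of all genes met. Scd2 was the exception, with an interval from -0.68 to 0.10. The count covers brightest probes only, and the intervals of a dimmer Hmgcs1 and a dimmer Fdps probe reached 0.65 and 0.59, past 1.5-fold. It also comes from the fit without slide, although slide largely followed group. The genes described on every array had a larger SE with slide as a fixed block. The typical SD between animals of a group was 0.16 for the members and 0.19 for all genes.

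**Figure D1:**
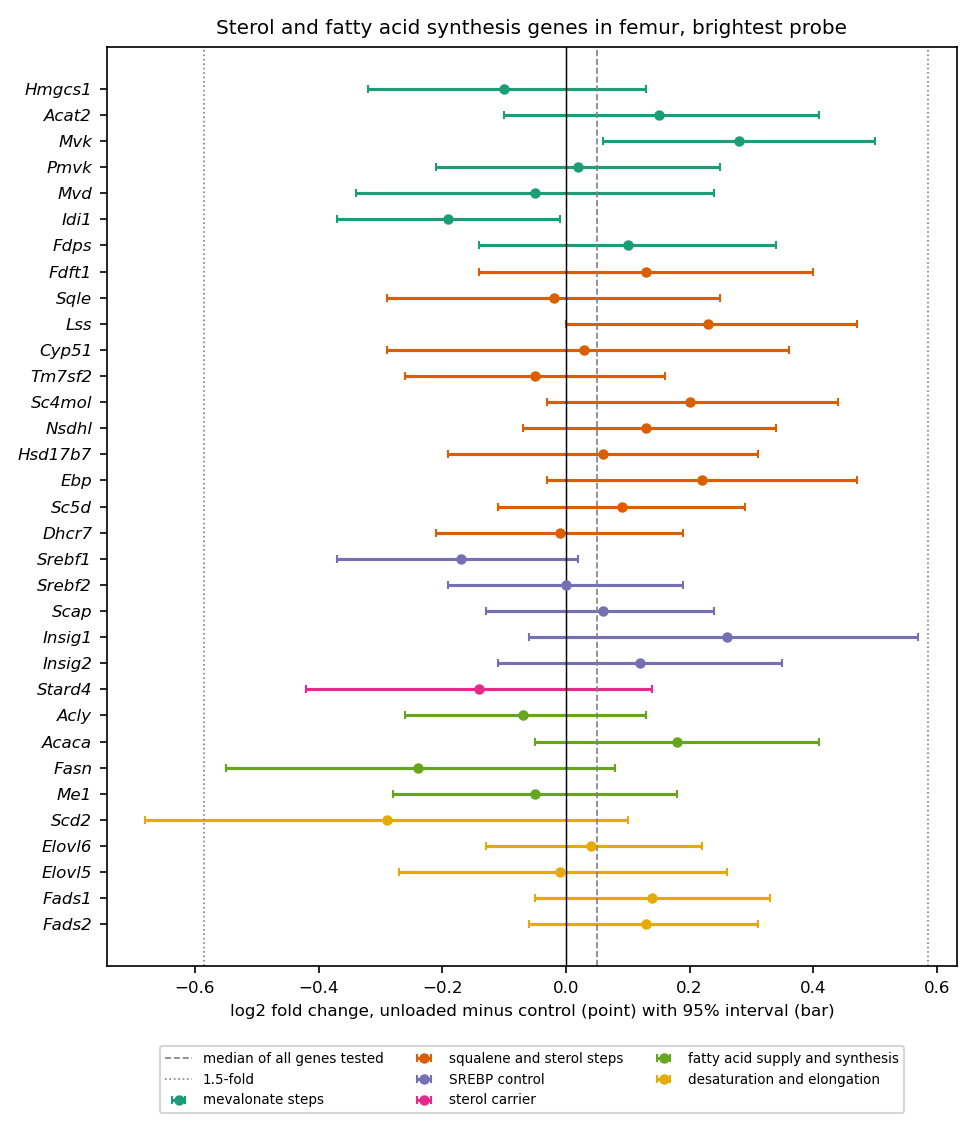
Difference between unloaded and control femur for each of the 33 genes, as a log2 fold change (point) with its 95% interval (bar), n = 5 arrays a group, coloured by role. The dashed line marks the median of all genes tested (0.05) and the dotted lines a 1.5-fold change; Scd2 is the only gene whose interval passes a dotted line, and the intervals of Mvk (0.06 to 0.50) and Idi1 (-0.37 to -0.01) leave out 0.

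The mevalonate steps turn acetyl units into isoprenoids, and their 7 genes were positive in 4 and negative in 3, with a median of 0.02. Mvk encodes mevalonate kinase, which phosphorylates mevalonate. Its signal was -0.29, -0.36, -0.37, -0.20 and 0.00 in controls 1 to 5 and -0.08, -0.02, 0.05, -0.01 and 0.25 in unloaded animals 1 to 5. Controls 1 to 4 lay below every unloaded animal, and control 5 lay within their range. The log2 fold change was 0.28 (SE 0.10, 1.22-fold, limma adjusted p = 0.258). On slide 2, the slide that holds control 5, the difference was -0.02. A second Mvk probe gave 0.06, and the mean of both 0.17.

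Idi1 encodes the isomerase that makes dimethylallyl from isopentenyl diphosphate. It measured 1.02, 1.03, 1.07, 0.87 and 1.01 in the controls and 0.75, 0.87, 0.72, 0.89 and 0.81 in the unloaded animals. Control 4 fell among the unloaded animals, and the other 4 controls lay above all of them. The difference was -0.19 (SE 0.08, 1.14-fold lower, limma adjusted p = 0.300) and was -0.23 on slide 2. The dimmer of its 2 probes had the opposite sign, at 0.17, and the mean of both probes differed by -0.01.

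Hmgcs1 makes HMG-CoA, the compound from which mevalonate is formed. Its 3 probes did not all have the same sign. The brightest read 2.03, 2.23, 2.15, 2.03 and 1.88 in the controls and 2.03, 2.19, 1.89, 1.77 and 1.95 in the unloaded animals, groups that overlapped over most of their range, with a difference of -0.10 (SE 0.10, limma adjusted p = 0.612). A dimmer probe, which the array file assigns to a cDNA clone rather than the RefSeq transcript, gave 0.29 (SE 0.17, limma adjusted p = 0.382), which came from unloaded animals 4 and 5 at -1.15 and -0.90, while the other 8 arrays lay between -1.89 and -1.64. The third probe gave -0.07.

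The other 4 genes of these steps had differences between -0.05 and 0.15. Acat2, a thiolase that joins acetyl units, had 0.15, and Fdps, which makes farnesyl diphosphate, had 0.10. Pmvk and Mvd, which act on mevalonate phosphates, had 0.02 and -0.05. The dimmer Fdps probe gave 0.29 (SE 0.14, limma adjusted p = 0.330), with unloaded animals 3 and 5 at 0.30 and 0.51 and unloaded animal 4 at -0.33, the lowest of the 10.

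Upstream sequence was read from a RefSeq promoter table (GRCm38.p6), which held 27 of the 33 genes, over the 250 bases before the annotated start. Letters searched, on both strands, were TCACNCCAC for a sterol regulatory element, CCAAT for the box bound by NF-Y, a usual partner of SREBP, CACGTG for an E-box and GGGCGG for a GC box. A gene counted when any of its promoters in the table matched. A CCAAT box was present in 21 of the 27 genes (77.8%), beside 39.4% of the 14822 tested genes with a promoter in the table. Of all genes in it, 37.5% had one. The GC box was in 22 (81.5% beside 51.7% of tested genes and 35.4% of all genes) and the E-box in 6 (22.2% beside 8.53% and 6.86%). The sterol element in that spelling was in Hmgcs1 alone, beside 1.26% of tested genes and 1.22% of all genes. Median GC content was 62.8% for the members and 57.2% for the tested genes, and its part in these shares was not tested. A match is a run of letters and not a binding site.

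The 4 sequences below show how the same elements lie before Mvk, Cyp51, Hmgcs1 and Idi1. In the scaling used for the signals above, the probes of Mvk and Cyp51 were all positive, and those of Hmgcs1 and Idi1 differed in sign. That contrast depends on the scaling. With quantile normalization the dimmer Mvk probe gave -0.01 and the brightest Cyp51 probe -0.07, so that all 4 genes had probes of both signs. Capitals mark TCACNCCAC and CCAAT or its reverse complement ATTGG. They lie at chr13:119690101-119690350 (Hmgcs1, plus strand), chr13:8885356-8885605 (Idi1, plus), chr5:114444019-114444268 (Mvk, plus) and chr5:4104698-4104947 (Cyp51, minus), and run 5′ to 3′ toward the gene.
Hmgcs1: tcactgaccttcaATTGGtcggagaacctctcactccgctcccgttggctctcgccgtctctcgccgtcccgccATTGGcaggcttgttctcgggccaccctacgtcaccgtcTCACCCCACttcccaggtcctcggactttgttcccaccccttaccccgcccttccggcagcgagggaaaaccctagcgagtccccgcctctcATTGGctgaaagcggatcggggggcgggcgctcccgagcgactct
Idi1: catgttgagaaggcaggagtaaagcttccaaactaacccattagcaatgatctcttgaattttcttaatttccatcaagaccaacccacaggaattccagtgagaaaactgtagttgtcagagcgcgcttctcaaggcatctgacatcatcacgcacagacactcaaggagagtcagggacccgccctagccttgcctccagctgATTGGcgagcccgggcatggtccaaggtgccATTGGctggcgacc
Mvk: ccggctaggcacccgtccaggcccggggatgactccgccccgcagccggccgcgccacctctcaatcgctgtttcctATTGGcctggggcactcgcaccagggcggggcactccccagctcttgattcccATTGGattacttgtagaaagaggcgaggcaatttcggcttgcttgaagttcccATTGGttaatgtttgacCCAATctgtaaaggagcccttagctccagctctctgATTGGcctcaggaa
Cyp51: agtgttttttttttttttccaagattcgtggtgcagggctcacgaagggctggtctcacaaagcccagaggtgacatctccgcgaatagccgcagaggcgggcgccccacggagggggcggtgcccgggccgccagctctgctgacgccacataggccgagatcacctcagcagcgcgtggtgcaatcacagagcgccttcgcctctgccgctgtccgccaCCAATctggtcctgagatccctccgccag
The Mvk stretch holds 5 CCAAT boxes, Hmgcs1 3, Idi1 2 and Cyp51 1, and the single sterol element of Hmgcs1 lies between its CCAAT boxes. Mvk and Idi1, whose brightest probes differed in opposite directions, both carry several.

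The 11 genes of the squalene and sterol steps were positive in 8 and negative in 3, with a median of 0.09, and none was called. Lss encodes lanosterol synthase, which closes the sterol rings. The controls read -0.65, -0.66, -0.91, -0.59 and -0.46 and the unloaded animals -0.24, -0.63, -0.40, -0.32 and -0.52. Unloaded animals 2 and 5 lay within the range of the controls, and the other 3 above it. The difference was 0.23 (SE 0.11, limma adjusted p = 0.311), its other 2 probes gave 0.20 and 0.05, and on slide 2 it was 0.04.

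Ebp, the sterol isomerase, measured 3.50, 3.51, 3.52, 3.33 and 3.79 in controls and 3.54, 3.86, 3.76, 3.57 and 4.00 in unloaded animals. Control 5 was above unloaded animals 1, 3 and 4, while the other controls lay below all 5. Its difference was 0.22 (SE 0.12, limma adjusted p = 0.350), or -0.06 on slide 2. For Sc4mol, the methyl oxidase that removes methyl groups from the sterol nucleus, the values were 2.01, 2.07, 1.96, 1.70 and 1.94 in controls and 1.98, 2.14, 2.20, 1.96 and 2.41 in unloaded animals. The lowest reading was control 4 and the highest unloaded animal 5, and the difference was 0.20 (SE 0.11, limma adjusted p = 0.356). On slide 2 it was 0.17.

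Fdft1 and Sqle commit farnesyl diphosphate to sterols, as squalene synthase and squalene epoxidase. Fdft1 read -0.14, -0.03, 0.11, -0.31 and 0.04 in controls and 0.13, 0.21, -0.02, 0.30 and -0.31 in unloaded animals, a difference of 0.13 (SE 0.13, limma adjusted p = 0.575). Sqle read 0.27, 0.25, 0.33, -0.05 and 0.12 in controls and 0.13, 0.38, 0.03, 0.42 and -0.15 in unloaded animals, a difference of -0.02 (SE 0.12, limma adjusted p = 0.936). In both genes unloaded animals 4 and 5 marked the top and bottom of their group, Fdft1 sharing its lowest value with control 4. The groups overlapped throughout.

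Cyp51, the demethylase that acts on lanosterol, had differences of 0.03, 0.12 and 0.24 from its 3 probes. The dimmest of them, at 0.24 (SE 0.09, limma adjusted p = 0.261), was the only one of the 65 member probes on which the groups did not overlap, and 3.16% of all probes did not. Its controls ran from -2.39 to -2.06 and its unloaded animals from -2.04 to -1.98. The size of its difference depended on the processing, at 0.13 with quantile normalization and 0.15 with another background correction (normexp). The other Cyp51 probes overlapped. Among the remaining sterol genes Nsdhl had 0.13, Sc5d 0.09, Hsd17b7 0.06, Dhcr7 -0.01 and Tm7sf2 -0.05.

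Of the 5 genes that sense sterols and switch the pathway on 4 were positive and 1 negative, with a median of 0.06, and none was called. Srebf1 encodes the SREBP that favours fatty acid genes. Its controls read 3.00, 3.30, 3.13, 3.28 and 3.11 and its unloaded animals 3.06, 3.05, 2.96, 3.00 and 2.88. Control 1 lay among the unloaded animals, and controls 2 to 5 lay above them all. The difference was -0.17 (SE 0.09, limma adjusted p = 0.347) and -0.09 on slide 2.

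Srebf2, the SREBP that favours sterol genes, was level, at 3.20, 3.14, 2.99, 3.11 and 3.19 in controls and 3.22, 3.15, 3.02, 3.06 and 3.18 in unloaded animals. The difference rounded to 0, with a 95% interval from -0.19 to 0.19. Scap, the escort, had 0.06 (interval -0.13 to 0.24).

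Insig1 is itself switched on by SREBP and retains Scap in the endoplasmic reticulum. It read -0.49, -0.94, -1.11, -0.87 and -0.72 in controls and -0.57, -0.93, -0.66, -0.49 and -0.18 in unloaded animals. Unloaded animal 5 stood above the rest, and the groups otherwise overlapped. The difference was 0.26 (SE 0.15, limma adjusted p = 0.371), it was -0.01 on slide 2, and a dim second probe gave -0.13. The mean of both probes differed by 0.06, and without unloaded animal 5 the brightest gave 0.16. Insig2 had 0.12, with all 3 probes positive. Stard4, a sterol carrier induced by SREBP, had -0.14 from its brightest probe, which read 0.04 in unloaded animal 5 and between 0.52 and 0.79 on the other arrays, while its other probes gave 0.22 and 0.21.

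**Figure D2:**
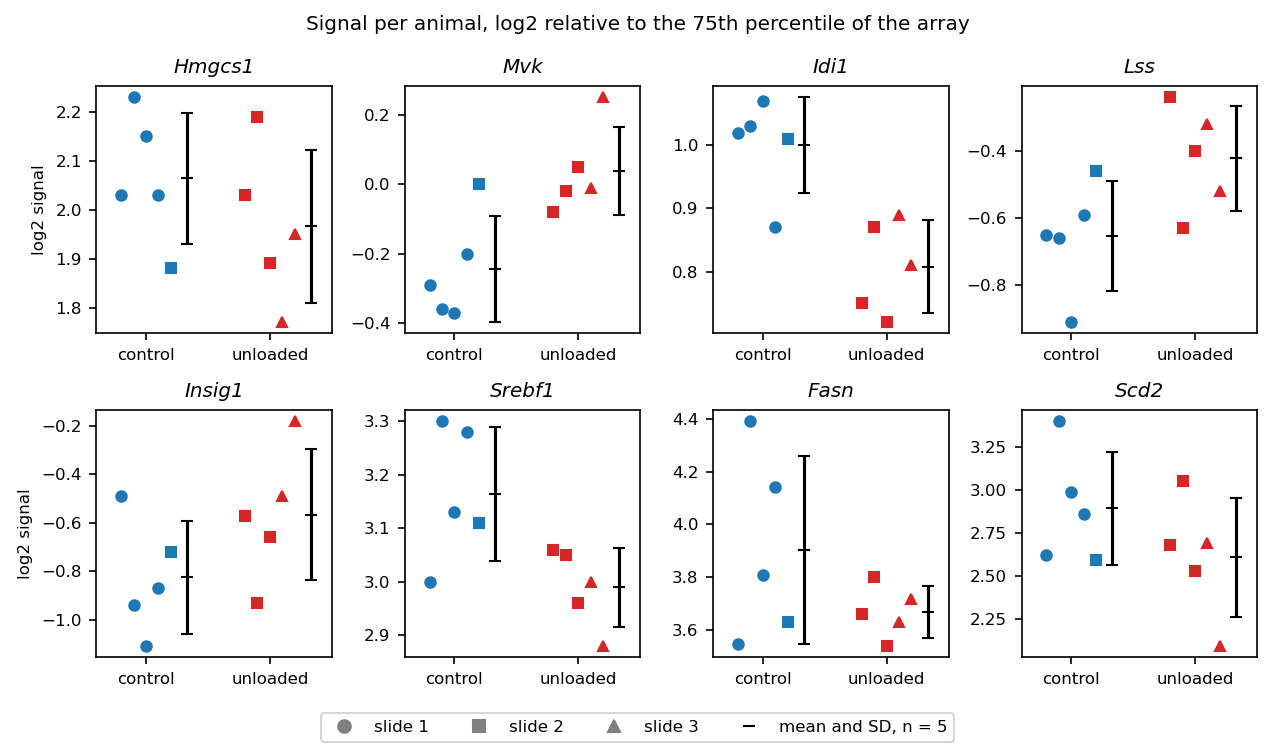
Signal of 8 genes in every animal (points; the shape gives the slide), as log2 intensity minus the array's 75th percentile, with the mean and SD of each group of 5; the vertical axis differs between panels. In Mvk the control on slide 2 (0.00) lies among the unloaded animals, and in Fasn the controls spread from 3.55 to 4.39 while the unloaded animals lie between 3.54 and 3.80.

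Of the 4 genes of fatty acid supply and synthesis 1 was positive and 3 negative, with a median of -0.06. Fasn encodes fatty acid synthase, which assembles palmitate. Its controls read 3.55, 4.39, 3.81, 4.14 and 3.63, a 1.79-fold range, and its unloaded animals 3.66, 3.80, 3.54, 3.63 and 3.72, a 1.20-fold range. Controls 1 and 5 lay within the unloaded range, and controls 2 and 4 lay well above it. The difference was -0.24 (SE 0.15, limma adjusted p = 0.409), it was 0.04 on slide 2, and the dimmer Fasn probe gave 0.15. It was -0.11 without control 2, and -0.04 for the mean of both probes.

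Scd2 is a desaturase that puts the double bond into palmitoyl and stearoyl chains. It varied most between animals of a group (SD 0.34), at 2.62, 3.40, 2.99, 2.86 and 2.59 in controls and 2.68, 3.05, 2.53, 2.69 and 2.09 in unloaded animals. Control 2 was the highest and unloaded animal 5 the lowest. Its difference was -0.29 (SE 0.18, limma adjusted p = 0.413), against 0.16 on slide 2. Without control 2, or without unloaded animal 5, it was -0.16. Control 2 also had marker means of 2.32 for adipocytes and 4.38 for muscle, the second highest and the highest of the 10 arrays. The part of tissue content in its Scd2 and Fasn readings was not tested. Over the 10 arrays Fasn correlated with the adipocyte mean at r = 0.67 (rho = 0.79) and with the muscle mean at r = 0.56 (rho = 0.57), and Scd2 at 0.45 (rho = 0.48) and 0.65 (rho = 0.53). None of these passed adjustment over the 66 relations computed (permutation test, adjusted p between 0.293 and 0.582). Without controls 2 and 3 the r values were 0.56 and 0.28 for Fasn and -0.17 and 0.36 for Scd2.

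Acaca encodes acetyl-CoA carboxylase, the committed step of fatty acid synthesis. It read -0.26, -0.42, -0.32, -0.26 and -0.30 in controls and -0.07, -0.41, -0.18, -0.14 and 0.15 in unloaded animals. Unloaded animal 2 fell among the controls, and the other 4 lay above them. The difference was 0.18 (SE 0.11, limma adjusted p = 0.383), and its other 3 probes gave 0.18, 0.09 and -0.13. The mean of the 4 probes differed by 0.08, and without unloaded animal 5 the brightest gave 0.11. Acly, which supplies acetyl-CoA from citrate, had -0.07, and Me1, the malic enzyme that supplies NADPH, had -0.05.

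The desaturases Fads1 and Fads2 act on polyunsaturated chains and had small positive differences. Fads1 read 0.60, 0.50, 0.65, 0.66 and 0.50 in controls and 0.61, 0.80, 0.63, 0.84 and 0.72 in unloaded animals, which gave 0.14 (SE 0.09, limma adjusted p = 0.416). Fads2 read -0.32, -0.08, -0.18, -0.29 and -0.31 in controls and -0.12, -0.04, -0.14, -0.09 and -0.14 in unloaded animals, which gave 0.13 (SE 0.09, limma adjusted p = 0.439). In Fads2 control 2 alone lay within or above the unloaded range. The elongases Elovl6 and Elovl5 had 0.04 and -0.01. Elovl6 was the least variable of the controls' readings, with an SD of 0.04.

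Different probes of a gene could differ in sign, in members about as often as in all genes. Of 21 members with several probes, 10 (47.6%) had probes of both signs, and 49% of the 8216 tested genes with several probes did. Whether probes of a gene differed beyond their error was not tested. In Fasn, Hmgcs1, Idi1, Stard4 and Acly the brightest probe was negative and a dimmer one positive by 0.15 or more. Nsdhl, Sc5d, Insig1, Acaca and Srebf2 went the other way. Their brightest probe was positive (rounding to 0 for Srebf2), and their lowest dimmer probe lay between -0.17 and -0.08. Over all probes the sign went with brightness. Among the 9657 brightest of the 38629 probes the median difference was -0.05 and 38.6% were positive, and among the 9658 dimmest it was 0.11 and 70.9% were positive. Quantile normalization brought these medians to -0.01 and 0.01. With it, members with both signs rose from 10 (47.6%) to 17 (81%) of the 21, while all genes with several probes went from 49% to 51.5%. The median gap between the highest and lowest probe of a member was 0.19 before and 0.27 after, and the gap narrowed in 9 of 21. Over all such genes it was 0.20 and 0.19. The brightest Fasn and Idi1 probes stayed negative at -0.23 and -0.13. The brightest probes of 20 members fell among those 9657, 10 positive and 10 negative, with a median of 0. Of the 5 member probes among the 9658 dimmest, 1 was positive and 4 were negative, with a median of -0.13. These 5 belong to different genes, their intervals all included 0, and they are too few to set against the dim probes at large.

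**Figure D3:**
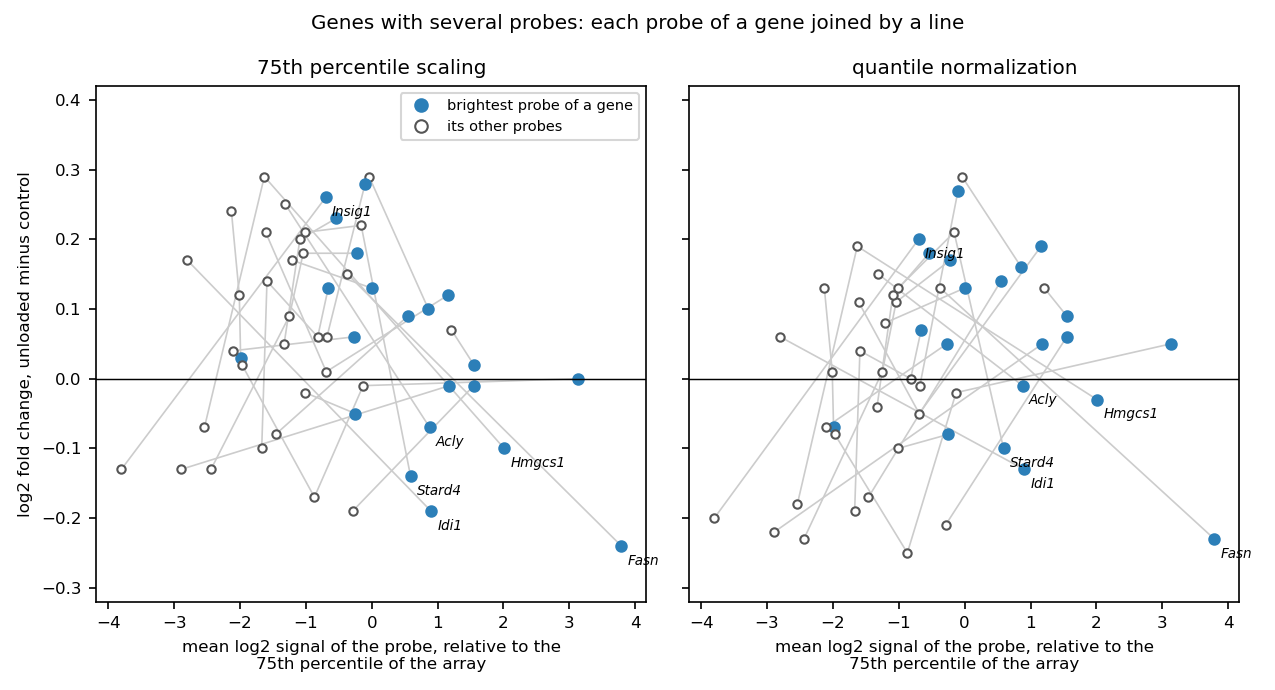
Log2 fold change (unloaded minus control) of every probe of the 21 genes with several probes, against the probe's mean log2 signal, with the probes of a gene joined by a line; left, scaled to the 75th percentile, right, after quantile normalization. Filled points are the brightest probe of a gene, and in Fasn it lies at -0.24 while the other probe lies at 0.15.

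Animals did not line up by group across the pathway. Relative to each gene's mean over the 10 arrays, the number of members above the mean ran from 8 to 21 in controls and from 12 to 24 in unloaded animals. Unloaded animal 2 had the most above (24, median departure 0.11) and control 4 the fewest (8, median departure -0.05). Unloaded animal 5 gave the highest reading of 10 members, Mvk, Ebp, Sc4mol, Insig1 and Acaca among them, and the lowest of 4, Scd2, Stard4 and Sqle among them. It was the array with the smallest share of spots well above background (89.8%, the others 91.9% to 95.5%), and the part of that in its readings was not tested. Without it, 0 members were called, and the median of the 33 was 0.06.

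**Figure D4:**
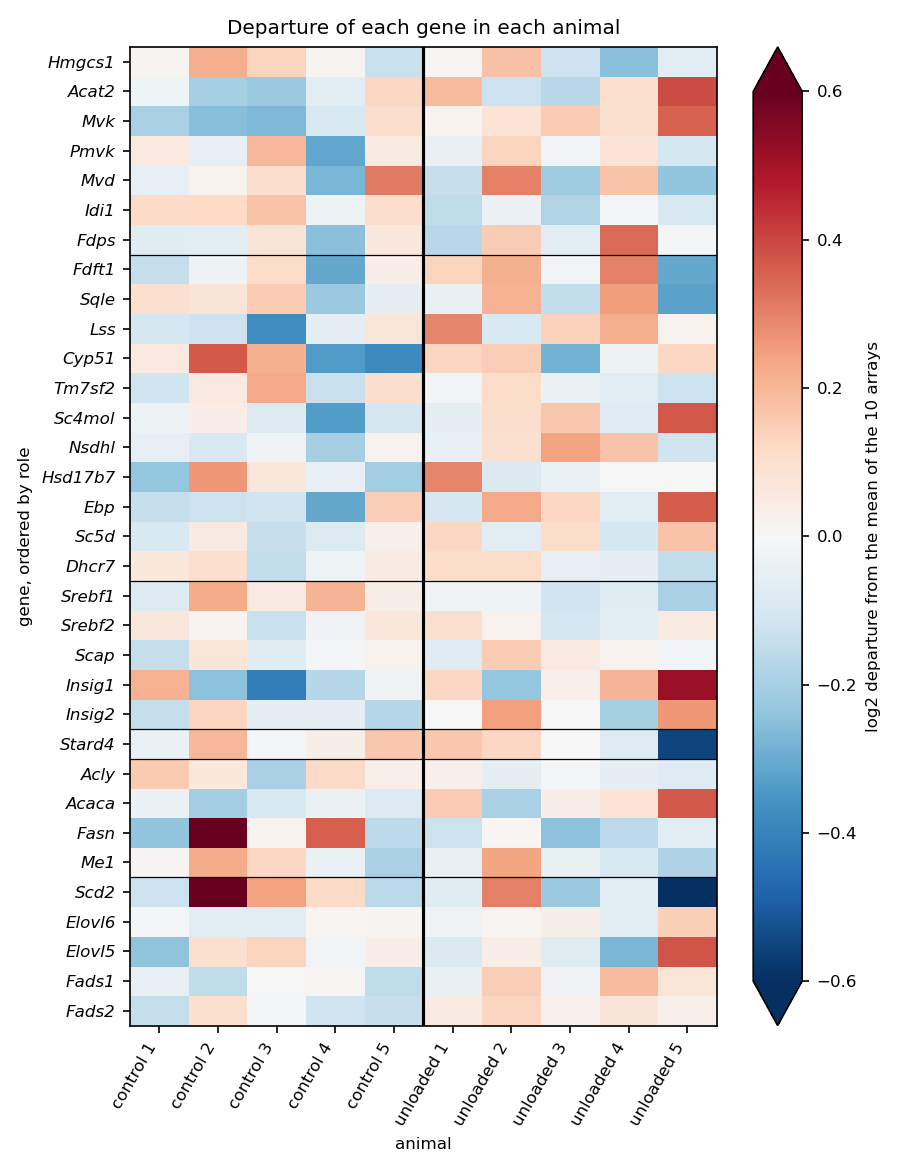
Departure of each of the 33 genes (rows, ordered by role) in each of the 10 animals (columns) from the gene's mean over all arrays, on the log2 scale; red is higher and blue lower, and the colour scale ends at 0.6. The controls left of the line and the unloaded animals right of it show no shared block of colour, and unloaded animal 5 holds 10 of the 33 highest readings.

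Of 46 listed neighbours of the pathway, 45 were tested, 20 were positive and 25 negative, with a median of -0.02, and limma called 0 (5 at an unadjusted p below 0.05, 1 of them higher and 4 lower, where all genes gave 9.84% and 5.9%). Erlin1, part of the complex that helps degrade sterol-sensing proteins, was the only 1 of 45 neighbours whose groups did not overlap, as in 3.29% of all genes, at 1.40 to 1.57 in controls and 1.08 to 1.39 in unloaded animals (difference -0.22, SE 0.09, limma adjusted p = 0.281). Mbtps2, the protease that makes the last cut of SREBP, had 0.27 (SE 0.13, limma adjusted p = 0.310). Coq2 and Dhdds, which use isoprenoids for ubiquinone and dolichol, each had -0.27.

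The 12 genes of sterol efflux, storage and trafficking had a median of -0.17, with 8 negative and 4 positive. Osbp, which moves sterols between membranes, had -0.26 (SE 0.10, limma adjusted p = 0.266). The efflux transporters Abca1 and Abcg1, both targets of the sterol-activated LXR receptors, had -0.26 and -0.25 (limma adjusted p = 0.345 and 0.351). Of the 18 genes of acyl chain activation, elongation and NADPH supply, 8 were positive and 10 negative, with a median of -0.01. G6pdx, which opens the pentose phosphate route to NADPH, had -0.20, and the chain-activating Acsl3 had 0.13.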

How the data were processed

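Femur RNA of 10 mice was measured on Agilent one-colour arrays. Per the file headers, the authors read spot intensity with Feature Extraction 9.1.3.1, and switched on spatial and multiplicative detrending. Arrays had not been scaled to one another. The intensity in the deposited series matrix was the same to rounding (ratios 0.995 to 1.005) and served as an alternative. The authors' background method is given as a code only. Spots of a probe were averaged as log2 after leaving out 97 outlier spots, and the 75th percentile of each array was subtracted. A probe was tested when well above background on 4 or more of the 5 arrays in either group and read on 3 or more in both. Symbols came from RefSeq by accession, current name or older name. Unloaded and control arrays were set against each other in limma 3.58.1 (R 4.3.3), two-sided and without covariates, and the number of arrays limits precision. Members and lists were chosen with earlier results of these data known. The procedure was tested on simulated data.

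Every member is accounted for. Values on all arrays are given for the 12 members with the smallest p and for 10 members fixed by name, which came to 16 genes, and for each neighbour list up to 3 genes with the smallest p are named. The promoter search and the grouping of probes by brightness were chosen after values were seen. Probes named after their values were seen are those of Cyp51, Stard4 and Fdps. Alternatives covered background correction, scaling, filters, slide, replicate number, body weight, variance trend, choice of probe and each animal left out. The design text calls the animals independent. Same-numbered animals are not paired in the labels.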

Additional observations from a re-analysis of the deposited data

Results flagged for a closer look

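Hsd17b7, a sterol reductase, read 0.03 in unloaded animal 1, while the other unloaded animals lay between -0.36 and -0.27. The gap to its neighbour was 0.775 of the group's range, above Dixon's 95% value of 0.71 for 5 samples. It was the only such value among 66 groups of 5 checked, where chance marks about 5%. The mean of the muscle markers was 4.32 in that animal and between 3.15 and 3.64 in the other unloaded animals.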

How the results depend on the processing

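No member was called under any alternative run, with 0 to 6 at an unadjusted p below 0.05 (limma). The count over all probes at that p moved too, from 6225 to 1815 with slide as a fixed block (0 members), 4064 without control 3 (1 member) and 9591 without unloaded 2 (6 members). The count of probes called over the whole array was 1, became 3 with slide as a fixed block and 0 with body weight in the model (3488 at an unadjusted p below 0.05), and ranged from 0 to 2 with each animal left out (0 without control 4, control 5 or unloaded 4, 2 without control 2). Among the 16 genes described on every array, slide as a fixed block turned the sign of Mvk (-0.02), Ebp (-0.06), Insig1 (-0.01), Fasn (0.04), Scd2 (0.16), Hmgcs1 (0.15), Sqle (0.06) and Srebf2 (-0.06); that fit compares the groups on slide 2, which has 1 control. Among the other members Acat2 (-0.16), Fdps (-0.09), Me1 (0.25), Pmvk (-0.03) and Dhcr7 (0.01) turned there as well. The mean of a gene's probes turned Hmgcs1 to 0.04 and Srebf2 to -0.04. Body weight turned Sqle to 0.08 and Srebf2 to -0.03, and Srebf2 was -0.09 with median scaling and 0 with the series matrix. With an animal left out, Sqle ranged from -0.09 to 0.06 and Srebf2 from -0.03 to 0.03. Hmgcs1 ranged from -0.16 without unloaded 2 to -0.05 without unloaded 4, and Fdft1 was 0.07 without control 4 or unloaded 4 and 0.22 without unloaded 5. The causes were not tested. With the replicate number as a block, 1 probe and 0 members were called; same-numbered animals deviated together with correlations from -0.14 to 0.18, so the numbers were not taken as pairs. As a random block, arrays of a slide correlated at -0.03, and 0 members were called.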

Other observations

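Each member was also set against the mean of the adipocyte and of the skeletal muscle markers over the 10 arrays, 66 relations chosen after the data were seen. The 2 groups were pooled, and the marker means differed between them by -0.20 for adipocytes and -0.24 for muscle. A difference between groups and variation between animals thus cannot be told apart in these relations. None passed adjustment, and signs were mixed, with 19 of 33 positive for the adipocyte and 17 of 33 for the muscle markers. A raw permutation p below 0.05 came in 7 relations, 5 positive and 2 negative, and each of the 7 had an adjusted p of 0.395 for r.

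With the adipocyte markers, Elovl5 had a Pearson r of 0.71 (permutation p = 0.0204) and a Spearman rho of 0.87 (permutation p = 0.00191, adjusted 0.126), and r was 0.80 without controls 2 and 3, the arrays farthest from the median. Lss was as strong in the opposite direction, with an r of -0.71 (permutation p = 0.0203) and a rho of -0.61 (permutation p = 0.0658, adjusted 0.561), but r was -0.40 without those arrays. Fasn had an r of 0.67 (permutation p = 0.0316) and a rho of 0.79 (permutation p = 0.00887, adjusted 0.293).

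With the muscle markers, Hsd17b7 had an r of 0.80 (permutation p = 0.00607), a rho of 0.66 (permutation p = 0.0433, adjusted 0.476) and an r of 0.74 without controls 2 and 3. That last value keeps unloaded animal 1, whose Hsd17b7 reading of 0.03 was flagged above and whose muscle mean was 4.32. Control 3 had the same muscle mean, so every muscle value without controls 2 and 3 keeps an array as far from the median as control 3. The relation without unloaded animal 1 was not computed. Srebf1 had an r of 0.67 (permutation p = 0.0376) and a rho of 0.76 (permutation p = 0.0145, adjusted 0.318), with r = 0.50 without those arrays. Scd2 had an r of 0.65 (permutation p = 0.0382) and a rho of 0.53 (permutation p = 0.118, adjusted 0.582). Insig1 was negative, with an r of -0.65 (permutation p = 0.0419) and a rho of -0.73 (permutation p = 0.0214, adjusted 0.322), and r was -0.40 without controls 2 and 3. The slides hold 4, 4 and 2 arrays, too few for a value within each.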
